A study of Mus musculus with 9 samples.

Results

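Interferon-induced genes and GTPases were examined in the thalamus of wild-type C57/BL mice after photothrombotic stroke, a method that closes vessels by illuminating a dye in the blood. The 62 genes were chosen by name from the authors' 2 tables of differing genes, taking the interferon-named Ifi, Ifit, Ifitm, Irf and Isg genes, the guanylate binding proteins, the immunity-related GTPases, and the Mx, Oas, Parp9 to Parp14, Trim21, Trim25, Trim30, Stat2, Usp18, Rsad2 and Bst2 names, among others. They were 62 of the 4277 genes listed in either table. A gene had to be listed to be chosen, so how many of them differed is partly set by that choice. The groups were sham, stroke and mmpp, with 3 samples each, all WT thalamus taken on day 7. The study injected melanin nanozyme particles, which act like enzymes, but the labels do not spell out mmpp, name the injected groups, give ages or say whether a sample was 1 animal. Values are group means in TPM, a share of all transcripts scaled for gene length, and the tables give no value per sample, so no spread or depth stands behind them here. Thalamic neuron markers were present, with Slc17a6 at 63.7 TPM and Tcf7l2 at 64.4 TPM in sham (authors' deposited table).

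Interferons are secreted proteins, and those of type I are released by cells on sensing foreign or misplaced nucleic acid. Type I interferons act through the receptor chains Ifnar1 and Ifnar2 and interferon gamma through Ifngr1 and Ifngr2, and both signal through Jak kinases to transcription factors. These bind the interferon-stimulated response element (ISRE) and the gamma-activated site (GAS) in promoters. The genes switched on include large GTPases that act on the membranes around parasites and bacteria, sensors of RNA and DNA, and proteins that block virus entry and replication. In brain, microglia, astrocytes, endothelium and invading leukocytes are all able to respond.

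Promoter sequences are shown first because they are what many of these genes share. RefSeq promoters (GRCm38.p6, 250 bases before to 50 after the start) were matched by symbol for 46 of the 62 genes. Among the other 16 were Gbp10, Gbp6, Gbp9, Ifi203-ps, Ifi204, Ifi27l2a, Iigp1, Mx1, Mx2, Oas1b, Oas2, Parp10, Parp14, Parp9 and Usp18. The ISRE was searched as GAAA, any 2 bases and GAAA again on both strands, and matches may overlap each other or a GAS. It was present for 29 of 46 genes (63.0%), against 3.99% of all 27025 RefSeq symbols with a promoter. Among other genes that rose after stroke it was present for 91 of 1373 (6.63%), and among genes that fell for 14 of 495 (2.83%). The GAS, searched as TTCNNNGAA, was present for 10 of 46 genes (21.7%), against 9.55% of all. The genes were chosen by interferon-related names, so their ISRE share is not independent of that choice. It is not read as a result about stroke. A match is a stretch of letters and not a shown binding site. The sequences below end at the base before the start and stand for the main families, with ISRE matches in capitals. They are from Isg15 (chr4:156200819-156200938, minus strand), Oas1a (chr5:120907526-120907587, minus strand), Irgm1 (chr11:48871421-48871500, minus strand), Gbp2 (chr3:142620583-142620662, plus strand), Ifit3 (chr19:34583359-34583528, plus strand), Bst2 (chr8:71537473-71537622, minus strand), Ifi207 (chr1:173741810-173741889, minus strand) and Ifi211 (chr1:173913047-173913126, minus strand).
Isg15: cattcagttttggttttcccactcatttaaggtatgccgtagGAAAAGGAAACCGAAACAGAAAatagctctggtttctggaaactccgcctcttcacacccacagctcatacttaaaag
Oas1a: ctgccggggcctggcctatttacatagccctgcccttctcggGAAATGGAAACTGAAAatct
Irgm1: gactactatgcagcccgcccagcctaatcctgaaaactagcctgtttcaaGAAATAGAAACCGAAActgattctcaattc
Gbp2: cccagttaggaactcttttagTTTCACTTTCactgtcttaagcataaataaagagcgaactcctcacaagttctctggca
Ifit3: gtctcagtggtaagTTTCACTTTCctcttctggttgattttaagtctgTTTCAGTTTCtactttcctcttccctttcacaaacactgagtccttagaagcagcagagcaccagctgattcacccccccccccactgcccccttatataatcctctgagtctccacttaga
Bst2: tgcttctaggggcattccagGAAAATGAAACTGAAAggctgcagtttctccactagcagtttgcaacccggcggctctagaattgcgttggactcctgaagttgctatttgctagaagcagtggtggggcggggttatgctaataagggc
Ifi207: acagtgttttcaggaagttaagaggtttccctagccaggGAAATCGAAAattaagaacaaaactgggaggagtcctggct
Ifi211: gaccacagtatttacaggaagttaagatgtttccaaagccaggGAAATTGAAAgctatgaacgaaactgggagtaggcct
Isg15 had 3 overlapping matches, while Oas1a, Irgm1 and Bst2 had 2 overlapping ones and Ifit3 had 2 apart. Ifi207 and Ifi211 share 87.0% of their 300 bases, and both keep the match near the start. The coordinates are of the RefSeq build and not of GRCm39, the build named in the submitters' processing notes.

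The transcription factor genes Irf1 and Irf8 had no ISRE match in these windows and had GAS matches, shown in capitals from chr11:53769904-53770013, plus strand for Irf1 and chr8:120736178-120736357, plus strand for Irf8.
Irf1: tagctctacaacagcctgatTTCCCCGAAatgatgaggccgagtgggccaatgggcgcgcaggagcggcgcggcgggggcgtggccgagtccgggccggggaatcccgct
Irf8: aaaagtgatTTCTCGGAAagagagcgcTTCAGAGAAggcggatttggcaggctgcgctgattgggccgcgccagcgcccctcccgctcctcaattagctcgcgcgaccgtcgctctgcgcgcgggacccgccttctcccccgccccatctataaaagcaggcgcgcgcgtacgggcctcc
Irf1 had 1 match and Irf8 had 2 in these windows. All 4 matched guanylate binding protein promoters, all 3 Ifit promoters and 7 of 8 Ifi200 family promoters held an ISRE, against 1 of 6 transcription factor promoters, where 3 held a GAS. Of 42 ISRE matches, 31 lay wholly within the 150 bases before the start. Some promoters are near copies, since 7 pairs of genes shared at least 70% of bases, up to 95.7% for Ifi209 and Ifi214. Folds of stroke over sham covered overlapping ranges in genes with and without an ISRE. From the means of the authors' deposited table, the median was 4.05-fold for 29 genes with one (2.11 to 41.1) and 4.28-fold for 17 without (2.15 to 20.8).

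**Figure D1:**
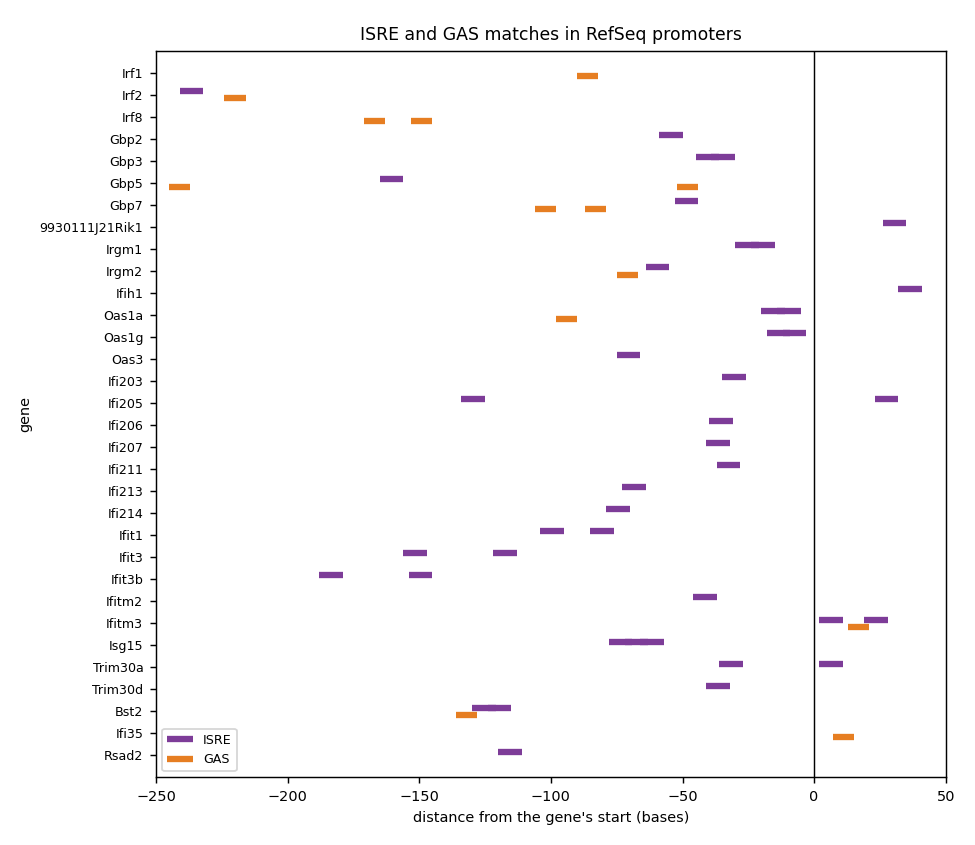
Positions of ISRE (purple) and GAS (orange) matches in the RefSeq promoters of the genes that hold either, by distance in bases from the gene's start at 0. For genes with more than 1 annotated start, matches from each window are drawn on 1 line. Most of the 42 ISRE matches lie between the start and 150 bases before it.

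Interferon-induced genes were higher in stroke thalamus than in sham across every family examined. The authors' deposited table listed 61 of the 62 for this comparison, all 61 higher, and 57 rose with an authors' q-value under 0.05. Over all 20804 genes that the authors adjusted, 9.67% rose in this sense. Of genes listed at all, 60.6% were higher. Counting from RefSeq names instead, 54 of 93 protein-coding genes that fit the naming rule rose, or 58.1%. The median log2 fold change of the 61 genes was 2.10, against 2.34 for all genes listed higher. Summed over the 61 genes, the mean TPM was 298.7 in sham against 1657 in stroke, a ratio of 5.55, from the authors' deposited table. The 6 most abundant genes in stroke, Ifi30, Bst2, Ifi27l2a, Ifitm2, Ifitm3 and Irf8, held 70.6% of the stroke sum. Without them the sum went from 134.9 to 486.5 TPM.

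**Figure D2:**
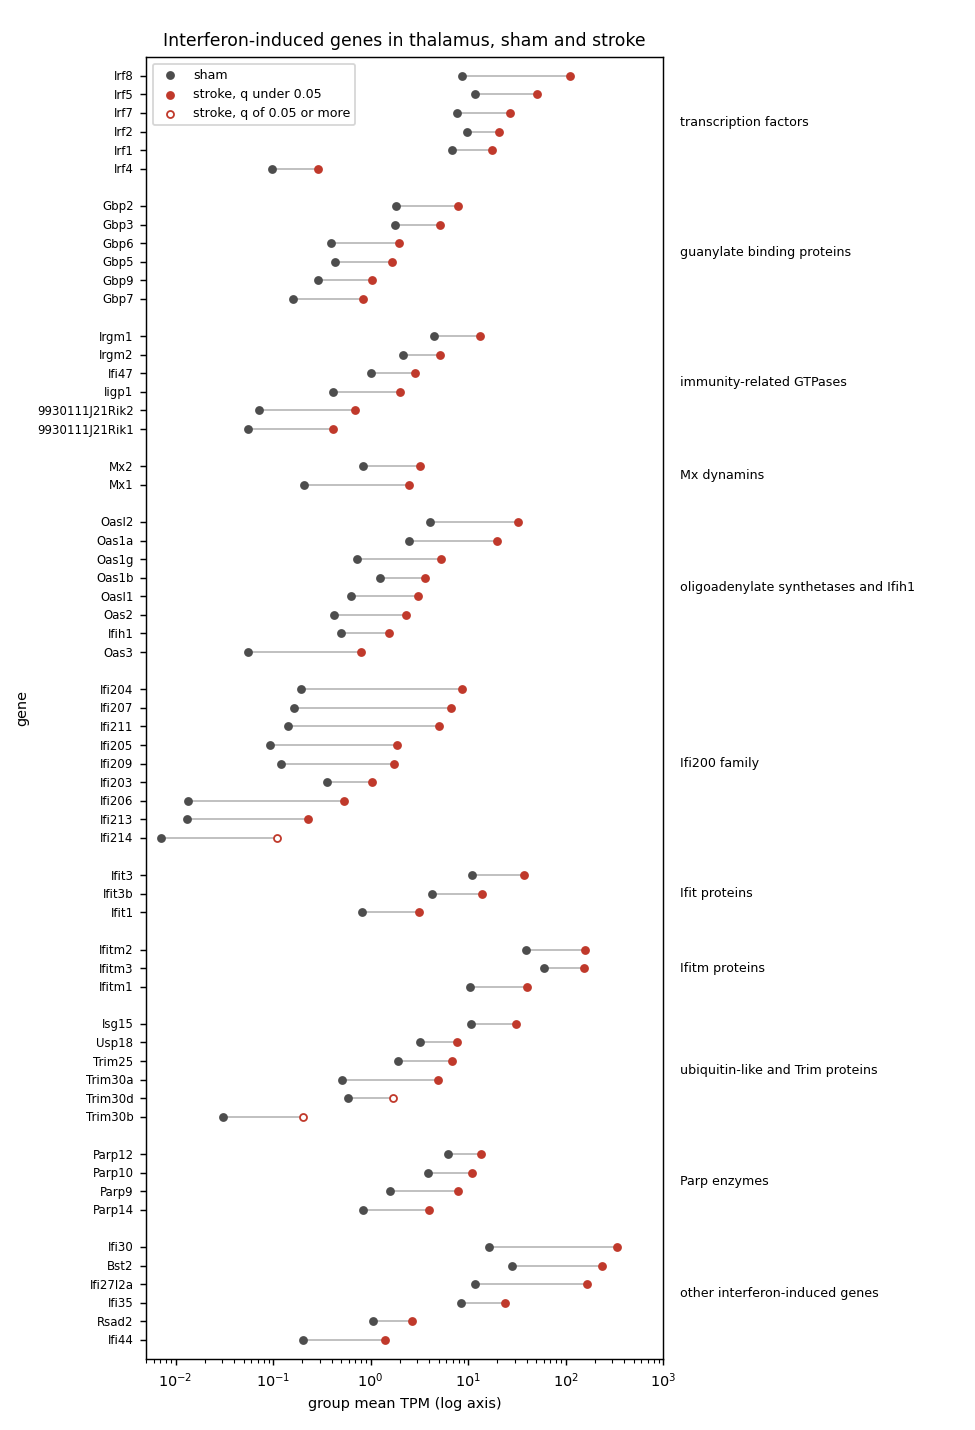
Group mean TPM (log axis) of 59 genes in sham (grey) and stroke (red), grouped by family. Filled red points have an authors' q-value under 0.05. Gbp10, not detected in sham, is left out. Every stroke mean lies to the right of its sham mean, and the longest lines are those of Ifi204, Ifi207 and Ifi206.

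Among the factors that carry the interferon signal to the nucleus, all 7 listed genes rose. Irf8, a factor of microglia and other myeloid cells, was at 8.68 TPM in sham against 111.8 in stroke (12.9-fold, q = 8.18e-20, authors' deposited table). Irf5, which acts downstream of Toll-like receptors, went from 11.8 to 50.4 TPM (q = 4.01e-09, authors' deposited table). The amplifier of type I interferon production, Irf7, went from 7.74 to 26.8 TPM (q = 1.14e-05, authors' deposited table). These 3 had the largest folds of the group. Irf1, an activator induced by interferon gamma, went from 6.77 to 17.7 TPM, and Irf2, which competes with it, from 9.78 to 20.6 TPM (authors' deposited table). Irf2 had the smallest change of all, a log2 fold change of 1.08, just inside the tables' limit of 1. Irf4, a lymphoid and dendritic cell factor, was barely expressed, at 0.0975 TPM in sham against 0.291 in stroke (authors' deposited table). Its q-value of 0.0470 was the last inside the 0.05 threshold. Stat2, Irf3 and Irf9 were not listed, which does not show that they were unchanged.

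The guanylate binding proteins, GTPases that coat the vacuoles of intracellular microbes, had 7 genes listed and 6 risen. Gbp2 was the most abundant, at 1.84 TPM in sham against 7.86 in stroke (4.27-fold, q = 6.26e-05, authors' deposited table). Gbp3 went from 1.80 to 5.20 TPM (2.89-fold, authors' deposited table). Gbp6 had the smallest q-value of the family, rising from 0.389 to 1.94 TPM (q = 1.40e-05, authors' deposited table). Folds of the 6 risen genes lay in a narrow band, from 2.89 to 5.27. Gbp5, which promotes inflammasome activation, went from 0.430 to 1.68 TPM (authors' deposited table), Gbp7 from 0.159 to 0.836 and Gbp9 from 0.289 to 1.03. Gbp10 was not detected in sham and at 0.0875 TPM in stroke (authors' deposited table). It had been left out of the authors' adjustment and has a q-value of 1.

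The immunity-related GTPases, a mouse family that also disrupts parasite vacuoles, had 6 genes listed, and all 6 rose. Irgm1, which regulates the other members, was the most abundant, at 4.52 TPM in sham against 13.2 in stroke (2.93-fold, q = 0.00129, authors' deposited table). Irgm2, of the same regulatory class, went from 2.15 to 5.15 TPM (authors' deposited table). Ifi47, also named Irgd, went from 1.02 to 2.85 TPM (q = 0.0369, authors' deposited table). Iigp1, an effector that loads onto the vacuole, went from 0.413 to 1.99 TPM (4.82-fold, authors' deposited table). The neighbouring genes 9930111J21Rik1 and 9930111J21Rik2, the latter also named Irgb5, had the largest folds from the lowest levels. 9930111J21Rik2 went from 0.0718 to 0.694 TPM (9.66-fold, q = 1.59e-05, authors' deposited table), and 9930111J21Rik1 from 0.0559 to 0.408 TPM (7.31-fold). Their promoters share 94.3% of bases. Their transcripts were not compared, and how reads matching both were counted is not stated, so their separate values are uncertain. The dynamin-like GTPases Mx1 and Mx2, which block influenza and other viruses, both rose. Mx1 went from 0.206 to 2.48 TPM (12.03-fold, authors' deposited table). Mx2 went from 0.839 to 3.25 TPM (3.87-fold, authors' deposited table). RefSeq lists both as transcribed pseudogenes in the reference mouse, so these values are RNA of genes not annotated there as making a protein.

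The largest folds were those of genes in the Ifi200 family, from low sham means. The Ifi200 family, DNA-binding relatives of Aim2 in a cluster of 10 chosen genes on chromosome 1, had 9 genes listed and 8 risen. Ifi204 went from 0.194 TPM for sham to 8.76 for stroke (45.3-fold, q = 0.00209, authors' deposited table). Ifi207 went from 0.162 to 6.66 TPM (41.1-fold, q = 1.21e-14, authors' deposited table). Ifi211 went from 0.142 to 5.02 TPM (35.5-fold, q = 9.68e-09, authors' deposited table). These 3 genes made up most of the family's stroke sum of 26.0 TPM. Ifi206 rose 40.5-fold to only 0.539 TPM (authors' deposited table), and Ifi205 rose 20.5-fold to 1.89 TPM. Ifi203 had the smallest fold of the family, from 0.359 to 1.04 TPM (2.90-fold, authors' deposited table). Ifi209 went from 0.121 to 1.73 TPM (authors' deposited table), and Ifi213 from 0.0131 to 0.229 (q = 0.0409). Ifi214 was listed higher, at 0.007025 TPM in sham against 0.110 in stroke (authors' deposited table), with a q-value of 1. The highest sham mean of the family was the 0.359 TPM of Ifi203, so the sizes of these folds are uncertain. Family members are also alike in sequence, so their separate values are uncertain too.

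The oligoadenylate synthetase family, whose active enzymes sense double-stranded RNA and switch on RNase L, had 7 genes listed, and all 7 rose. Oas1c, Oas1d, Oas1e, Oas1f and Oas1h fit the naming rule and were not listed. Oas1a had the smallest q-value of all 62 genes, going from 2.48 to 19.7 TPM (7.95-fold, q = 4.63e-20, authors' deposited table). Oasl2, an Oas-like protein with ubiquitin-like domains, was the most abundant, at 4.09 TPM in sham against 32.3 in stroke (7.89-fold, q = 2.07e-08, authors' deposited table). Oas1g went from 0.719 to 5.30 TPM (7.38-fold, authors' deposited table), and Oas3 from 0.0552 to 0.790 (14.3-fold). Oasl1 went from 0.630 to 3.10 TPM (authors' deposited table), and Oas2 from 0.424 to 2.33. Oas1b, the flavivirus resistance gene, which RefSeq lists as a transcribed pseudogene in the reference mouse, went from 1.26 to 3.66 TPM (2.91-fold, authors' deposited table). Ifih1, the RNA helicase sensor also called MDA5, went from 0.495 to 1.54 TPM (3.11-fold, q = 0.0104, authors' deposited table).

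Effectors were the most abundant members. Ifi30, a lysosomal thiol reductase used in antigen processing, was at 16.2 TPM in sham against 338.3 in stroke (20.8-fold, q = 1.07e-19, authors' deposited table). Bst2, also called tetherin, which holds budding viruses at the cell surface, went from 27.9 to 239.2 TPM (q = 7.47e-13, authors' deposited table). Ifi27l2a, an interferon alpha-inducible gene, went from 11.8 to 165.7 TPM (14.1-fold, q = 1.41e-11, authors' deposited table). These 3 genes alone came to 743.2 TPM in stroke. The Ifitm genes, whose products stop viruses at endosomal membranes, started high and had smaller folds. Ifitm3 went from 60.0 to 156.2 TPM (2.60-fold, q = 0.000872, authors' deposited table), Ifitm2 from 39.2 to 158.9 (4.05-fold) and Ifitm1 from 10.5 to 39.8 (3.79-fold). Of the Ifit genes, whose products bind viral RNA ends, the 3 listed rose by 3.27-fold to 3.77-fold. Ifit3 was the most abundant of them, at 11.1 TPM in sham against 37.1 in stroke (q = 2.47e-06, authors' deposited table). Its near copy Ifit3b went from 4.25 to 13.9 TPM (authors' deposited table), and Ifit1 from 0.823 to 3.10. Rsad2, or viperin, which makes a chain-terminating nucleotide, went from 1.06 to 2.68 TPM (2.52-fold, q = 0.00403, authors' deposited table). Ifi35 went from 8.56 to 24.1 TPM (authors' deposited table), and Ifi44 from 0.202 to 1.40.

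Genes of ubiquitin-like tagging and ADP-ribosylation also rose. Isg15, a ubiquitin-like tag, went from 10.7 to 31.1 TPM (2.90-fold, q = 0.000202, authors' deposited table). Usp18, which removes that tag and restrains the type I receptor, went from 3.18 to 7.79 TPM (2.45-fold, q = 0.00137, authors' deposited table). Trim25, a ubiquitin ligase of RNA sensing, went from 1.92 to 6.88 TPM (authors' deposited table). Trim30a rose 9.55-fold, from 0.514 to 4.91 TPM (q = 1.26e-08, authors' deposited table). Its relatives Trim30b and Trim30d were listed higher with q-values of 0.117 and 0.124, outside the threshold. Trim30b was at 0.0304 TPM in sham against 0.202 in stroke (authors' deposited table), and Trim30d at 0.592 and 1.71. All 4 listed Parp genes rose, and Parp11, which also fits the naming rule, was not listed. The folds ran from 2.15 for Parp12 (6.30 to 13.6 TPM) to 4.96 for Parp9, which went from 1.59 to 7.89 TPM (authors' deposited table). Parp14 went from 0.829 to 3.94 TPM (q = 1.30e-08, authors' deposited table), and Parp10 from 3.90 to 11.1.

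A gene at a low level in sham could be listed only through a clearly higher stroke mean. Sham means enter the fold as well. No relation between starting level and fold is therefore read here. Mentions of both for a gene or family only describe its values. Ifi30, Ifi27l2a, Irf8 and Bst2 had both a sham mean and a fold over 8, in TPM and in fold of the authors' deposited table.

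**Figure D3:**
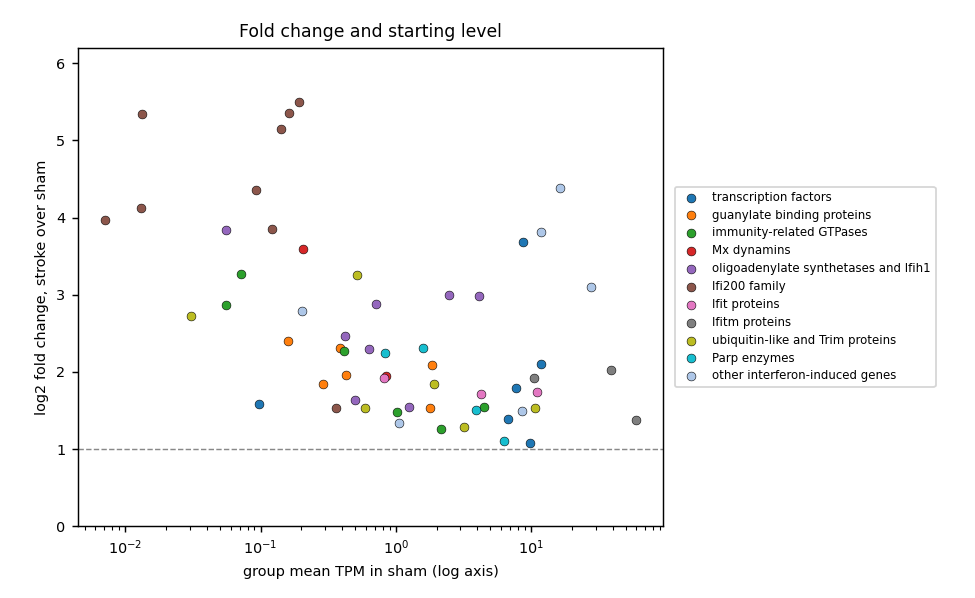
Log2 fold change of stroke over sham against sham mean TPM (log axis) for 59 genes, coloured by family. The dashed line marks the tables' limit of 1. Ifi200 family genes other than Ifi203 stand at the upper left, and Ifi30, Ifi27l2a, Irf8 and Bst2 at the upper right.

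Of 13 ligand and receptor genes, 3 were listed, and all 3 rose, where 9.67% of all adjusted genes rose. They were Ifnar2, from 16.8 to 62.9 TPM, Ifngr1, from 16.8 to 61.5, and Il10rb, a chain of the interferon lambda receptor, from 13.3 to 77.4 (authors' deposited table). The partner chains Ifnar1 and Ifngr2 were not listed, nor were Ifnb1, Ifng and the interferon alpha genes. Of 10 Jak kinase and inhibitor genes, 3 rose, among them Socs3, a feedback inhibitor, from 3.12 to 13.0 TPM, and the phosphatase gene Ptpn6 from 5.71 to 109.4 (authors' deposited table). Counts of 3 in the lists of 13 and 10 are not read as differing from that 9.67%. Of 18 sensors and adaptors, 10 rose and none was listed lower, beside the same share. Zbp1, a sensor of Z-form nucleic acid, went from 0.749 to 14.5 TPM, and Aim2 from 1.07 to 16.7 (authors' deposited table). Of 52 further interferon-stimulated genes, 36 rose and none was listed lower. The chemokine gene Cxcl10 went from 3.06 to 14.6 TPM, the immunoproteasome gene Psmb8 from 8.42 to 86.4, and Lgals3bp from 37.9 to 314.4 (authors' deposited table). In that list the ISRE was present for 10 of 46 matched promoters (21.7%).

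Markers of several cell types also differed between stroke and sham, where 9.67% of all adjusted genes rose. All 8 microglia markers rose, and their summed level went from 282.2 to 2692 TPM (authors' deposited table). Of 8 monocyte and macrophage markers 6 rose, with a summed level of 10.1 and 69.5 TPM for the 7 listed, and Ly6c2 was not listed. Most of that stroke sum was Ms4a7, at 1.22 TPM in sham and 45.1 in stroke (authors' deposited table). Of 9 T and NK cell markers 3 rose, with 1.11 and 6.55 TPM summed over the 6 listed, and Cd3e, Trac and Ncr1 were not listed. For plasmacytoid dendritic cells, Siglech and Ly6d were not listed and Bst2 is itself 1 of the genes described. Astrocyte markers had 2 of 4 risen, summed from 415.5 to 2522 TPM, and endothelial markers 1 of 5 (authors' deposited table). In such short lists, counts of 1 to 3 risen are not read as differing from the 9.67%. Most of the astrocyte sum was Gfap, which rose from 392.5 to 2453 TPM (authors' deposited table), and Aldh1l1 and Slc1a3 were not listed. Neuron markers had 4 of 6 fallen, where 3.37% of all adjusted genes fell, and those 4 summed to 1087 TPM in sham and 399.4 in stroke (authors' deposited table). Choroid plexus markers had 3 of 4 fallen, and the 4 summed to 4373 and 387.4 TPM (authors' deposited table). Most of that sum was Ttr, which fell from 4317 to 371.7 TPM (authors' deposited table). More cells of a type and more RNA per cell cannot be told apart in bulk tissue, and the part of cell numbers or of the tissue sampled in these results was not tested. TPM values add up to a fixed total, and the share left to genes not listed higher changed by -0.28 (log2). That value includes the genes that fell.

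These genes also share annotation terms. Of the 61 listed genes, the authors' deposited table assigned 34.4% the GO term for defence response to virus, against 0.948% of the other 4010 listed genes. GTP binding was assigned to 24.6% and 2.02%, and double-stranded RNA binding to 13.1% and 0.374%. In KEGG, 12 (19.7%) were in the NOD-like receptor signalling pathway and 10 (16.4%) in influenza A, against 1.35% and 1.10% of the other listed genes. Of the 61 genes, 28 had any KEGG pathway. The names and these terms are not independent of each other. Many of the genes sit side by side in the RefSeq annotation, with 42 of 62 in 11 groups of neighbours no more than 500 kb apart. The groups include 4 guanylate binding protein genes on chromosome 3 and 3 on chromosome 5, 5 Oas genes on chromosome 5, and Irf7 beside 3 Ifitm genes on chromosome 7.

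Differences between mmpp and stroke in these genes were asked about next. Few were listed and none passed adjustment. The authors' deposited table listed 10 of the 62, all 10 lower in mmpp, and 0 had a q-value under 0.05. Listing took an unadjusted p under 0.05 together with a log2 fold change of at least 1 in size. Over all 19616 adjusted genes, 3.58% were listed lower and 0.0306% were lower with a q-value under 0.05. That 3.58% leaves out genes taken as not adjusted, as Ifi203-ps was, so 9 of the 10 count in its sense. The 62 were themselves chosen as listed genes, so the shares are of unlike sets. The median log2 fold change of the 10 genes was -1.82, against -1.57 for all genes listed lower. Of listed genes 74.1% were lower, so a common direction is the usual case in this table. The authors' test program is not named in the labels used here, and the count at an unadjusted p under 0.05 alone is unknown, since genes with smaller folds are not listed. Members of the Gbp, Mx, Ifit and Parp families were not listed, which does not show that they were equal in the groups.

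The listed genes were mostly of low level. 9930111J21Rik2 came nearest to passing, at 0.0718 TPM in sham, 0.694 after stroke and 0.102 for mmpp (q = 0.0972 for mmpp against stroke, authors' deposited tables). Its neighbour 9930111J21Rik1 was at 0.0559, 0.408 and 0.0753 TPM (q = 0.646, authors' deposited tables). All 6 of these means were under 1 TPM. In the Ifi200 family 4 of 10 genes were listed. Ifi204 was at 0.194 TPM in sham, 8.76 after stroke and 3.72 for mmpp (q = 0.787, authors' deposited tables). Ifi211 was at 0.142, 5.02 and 1.23 TPM (q = 0.430, authors' deposited tables), and Ifi205 at 0.0919, 1.89 and 0.618 (q = 0.738). The pseudogene Ifi203-ps, listed only here, had a mean of 0.135 TPM in stroke against 0.0118 in mmpp (authors' deposited table), with a q-value of 1. For these 3 protein-coding genes the mmpp mean stood well above sham, by 19.2-fold for Ifi204, 8.69-fold for Ifi211 and 6.72-fold for Ifi205. Their sham means were at most 0.194 TPM, so the sizes of these ratios are uncertain. For the other genes listed in both comparisons, the ratio ran from 1.16 for Irf4 to 3.90 for Oasl2. All are ratios of means in the authors' deposited tables that were not tested.

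Of the 10 genes listed lower, Ifitm1 and Oasl2 alone had a stroke mean over 10 TPM. Ifitm1 was at 10.5 TPM in sham, 39.8 after stroke and 15.9 for mmpp (q = 0.514, authors' deposited tables). Oasl2 was at 4.09, 32.3 and 15.97 TPM (2.02-fold lower in mmpp, q = 0.772, authors' deposited tables). Irf4 was at 0.0975, 0.291 and 0.113 TPM, and Trim30b at 0.0304, 0.202 and 0.0385 (authors' deposited tables), with q-values of 0.773 and 0.689. In the 9 genes listed in both tables the mmpp mean lay between the sham and stroke means. The same stroke samples enter both comparisons, so a high stroke mean acts on both, and no mmpp mean is given for the 52 genes listed only against sham. Markers listed lower in mmpp were 1 of 8 for microglia (Sall1) and 2 of 8 for monocytes and macrophages (Ccr2 and Itga4). There were also 1 of 9 for T and NK cells (Cd4) and 1 of 4 on the plasmacytoid dendritic cell list (Tcf4). Over all adjusted genes 3.58% were listed lower, and counts of 1 or 2 in such short lists are not read as differing from it. Siglech and Ly6d were not listed, and Tcf4 alone is not read as a change in plasmacytoid dendritic cells. Of 6 neuron markers 1 was listed higher, Slc17a6. None of these markers had a q-value under 0.05, the smallest being the 0.263 of Cd4 in the authors' deposited table, and their part in these values was not tested. Related genes listed lower in mmpp included 5 of 18 sensors and adaptors and 8 of 52 further interferon-stimulated genes, beside the same 3.58% of all adjusted genes. None of these related genes had a q-value under 0.05. Aim2 was at 1.07 TPM in sham, 16.7 after stroke and 4.61 for mmpp (authors' deposited tables), and Sp110 at 1.39, 27.4 and 8.35.

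**Figure D4:**
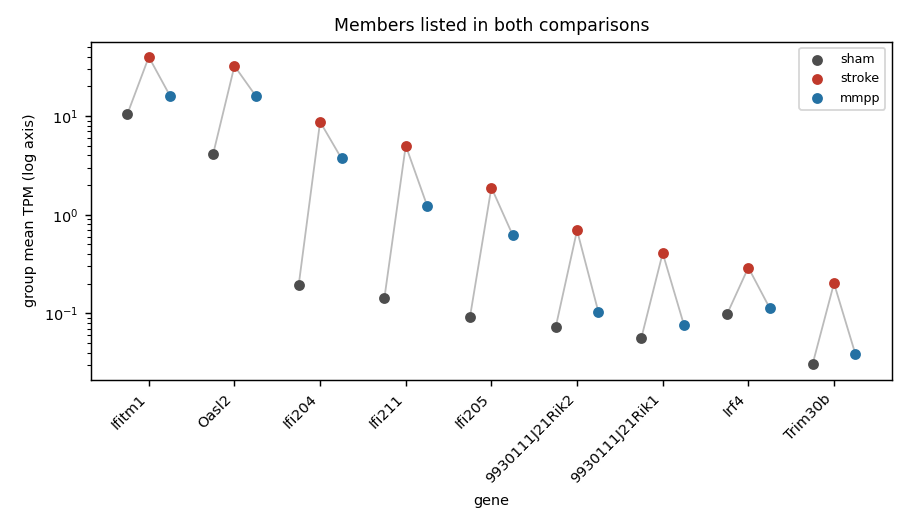
Group mean TPM (log axis) in sham, stroke and mmpp for the 9 genes listed in both comparisons. Each mmpp mean lies below stroke and above sham, and none of the differences from stroke has a q-value under 0.05.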

How the data were processed

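The authors deposited, per the file headers, a table for stroke against sham and one for mmpp against stroke, which hold per gene each group's mean TPM, the log2 fold change, and a p-value with its q-value. Bowtie2 2.2.3, TopHat2 2.0.12, HTSeq 0.6.0 and GRCm39 appear in the tools listed per the submitters' processing notes, whose roles are not stated. The deposited log2 fold change is the log2 ratio of the means. The tables are limited to a p-value under 0.05 and a log2 fold change of 1 or more in size, and a TPM of 0.0001 stands for not detected and gets no fold. No values per sample were analysed here, so no test was refitted, and the p-values may measure technical spread. "Rose" and "fell" mean an authors' q-value under 0.05. The number of genes adjusted was recovered from the deposited p-values and q-values as the number giving the most whole ranks (tolerance 0.001), checked on simulated tables. At that number a whole rank was found for 80.4% of genes with a q-value under 1 listed in the stroke and sham table, and for 25.2% in the other table, so shares of all adjusted genes rest on an estimated number. The genes, families and lists were chosen with earlier results of these data known. Every gene found by the naming rule is in the counts, but the values of 1 are not reported here, and genes outside it come from the lists. Handling of strand and of reads matching several genes is not named in the labels, so near copies are uncertain. Tables were handled in Python 3.11.15 with pandas 2.3.3.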

Additional observations from a re-analysis of the deposited data

How the results depend on the processing

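No paired analysis was possible because the tables hold group means, and for the same reason no replicate could be left out. The count of 57 genes risen after stroke went from 49 to 57 over a stricter and a looser q-value, a minimum of 1 TPM, dropped names and 1 identifier for each symbol. With a q-value under 0.1 the count lower in mmpp went from 0 to 1, 9930111J21Rik2. A pseudocount of 1 TPM, which by construction shrinks folds of low genes, took the median log2 fold change from 2.10 to 1.27 for stroke against sham and from -1.82 to -0.73 for mmpp against stroke. A longer ISRE of 12 letters was found in 15 promoters in place of 29, since fewer sequences can match it. Counting similar promoters once, an alternative chosen after seeing the data, gave 24 of 39. Depth is unknown, and means under 1 TPM are the least certain.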

Other observations

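Of the 93 RefSeq protein-coding names that fit the rule, 35 were not listed in either table. They include the GTPases Igtp, Tgtp1, Tgtp2 and Gbp4, the factors Stat2, Irf3 and Irf9, and the effectors Ifit2, Isg20, Ifi27 and Ifi44l. No value is given for such genes, so whether they were lower in level, less changed or untested cannot be told apart.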
